A study of Mus musculus with 4 samples.

Results

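ICAM-1 is a ligand that lets cells hold on to each other through LFA-1, and this description covers 10 genes of that adhesion system in activated lung group 2 innate lymphoid cells (ILC2s). The genes were taken by symbol from the deposited tables: the ligands Icam1 and Icam2, the beta 2 integrin subunits Itgal, Itgb2, Itgam and Itgax, and the integrin activators Tln1, Fermt3, Rap1a and Rap1b. All 10 had a row among the 22558 genes of the count table and all 10 passed the filter on low values that left 11711 genes to test. The libraries came from mice of 6 weeks on a C57BL/6 background. Of these, 2 came from wildtype mice (WT) and 2 from mice labelled ICAM-1 KO (the KO-labelled libraries). The latter mice were of the strain B6.129S4-Icam1 tm1Jcgr/J, whose lack of ICAM-1 the paper describes as constitutive. Both groups received 3 intranasal challenges of 0.5 µg rmIL-33, an epithelial alarm cytokine that activates ILC2s, and no unchallenged mice are among the libraries analysed here. Each library was a pool of sorted ILC2s from the lungs of 4 mice on day 4, so the spread between libraries is a spread between pools and not between animals.

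Beta 2 integrins are paired receptors of leukocytes in which the common chain CD18 (Itgb2) joins one of several alpha chains. With CD11a (Itgal) it forms LFA-1, the receptor for ICAM-1 and ICAM-2, with CD11b (Itgam) it forms Mac-1, and with CD11c (Itgax) it forms CR4, and the latter pair are best known on myeloid cells. LFA-1 is held in a resting shape until the small GTPase Rap1 recruits talin (Tln1) and, with it, kindlin-3 (Fermt3) to the tail of the beta chain, which opens the receptor for its ligand.

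Of the 10 genes, Itgam and Itgax were higher in the KO-labelled libraries than in WT, and none was lower, at an adjusted p under 0.05 from the quasi-likelihood test of edgeR with Benjamini-Hochberg adjustment over all genes tested. Among all genes tested, 8.8% were higher and 4.97% lower by this rule, 13.8% in all. Both rises were also larger than 2-fold, a further demand that 4.94% of all genes met upward and 0.538% downward. The LFA-1 chains Itgal and Itgb2, talin, kindlin-3 and the Rap1 genes did not pass the test, and neither did Icam1, the gene that the knockout targets. At an unadjusted p under 0.05 from edgeR, 3 of the 10 genes were higher and 0 lower. Of all 11711 genes tested, 3542 had such a p in either direction. At the same threshold DESeq2 gave 3 higher and 0 lower, and limma 3 higher and 1 lower. At an adjusted p under 0.05, DESeq2 and limma each called 2 higher and 0 lower. The median log2 change of the 10 genes was 0.14, against 0.01 for all genes tested. Both KO-labelled libraries lay above both WT libraries for 4 of the 10 genes, where 28.3% of all genes did so, and below them for 1, where 31.3% did so.

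The libraries held 24796148 to 28782471 counts on genes. Log2 expression correlated at 0.978 both between the WT libraries and between the KO-labelled libraries, and at 0.947 to 0.954 between libraries of different labels. Cells had been sorted as lineage negative CD45+ ST2+ CD127+ cells to a purity above 95%, with antibodies to CD11b and CD11c among the lineage markers. All 12 ILC2 genes of the marker list were found, led by Arg1, Il5 and Areg, with a summed normalized count of 6755 and 7207 in WT and 5683 and 5738 in the KO-labelled libraries. Of these, 4 were lower (Il2ra, Il13, Il5 and Arg1) and 1 was higher (Klrg1). Il13, a type 2 cytokine, fell from 31.6 and 35.2 to 11.1 and 12.9 (log2 change -1.45, adjusted p = 0.00247), and Il5, the eosinophil growth cytokine, from 1039 and 1252 to 668 and 656 (log2 change -0.76, adjusted p = 0.00274). Genes listed as markers of other lung cells were also found. Whether the ILC2s themselves made part of these RNAs was not tested. Of 8 macrophage, monocyte and dendritic cell markers (led by Lyz2, Csf1r and Cd68), 6 were tested and 5 were higher, the sum moving from 224 to 228 in WT to 454 to 713. All 8 endothelial markers (led by Pecam1, Ramp2 and Vwf) were higher, with sums of 137 to 142 in WT and 348 to 361. Of 8 T cell markers (Trbc2, Trac, Foxp3) 4 were higher (536 to 619 against 866 to 1029), and of 8 B cell markers (Ighm, Igkc, Ms4a1) 5 were higher (1527 to 3777 against 6399 to 9716). For alveolar epithelium (Sftpc, Sftpa1, Hopx) 5 of 7 tested were higher (105 to 122 against 539 to 1022), for neutrophils (S100a9, Mpo, S100a8) 2 of 6 (89.1 to 153 against 130 to 152), for NK cells (Gzma, Klrk1, Klrb1c) 2 of 4 (20.2 to 34.2 against 41.4 to 50.8) and for mesenchyme (Col3a1, Col1a2, Col1a1) 0 of 5 (16.8 to 48.1 against 37.9 to 79.1). Of 7 eosinophil markers tested (Ear2, Prg2, Epx), 4 were higher and 2 lower (109 to 122 against 70.2 to 92.0), and Epx was at 0 counts in both KO-labelled libraries.

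Icam1 encodes ICAM-1 (CD54), the main ligand of LFA-1, which is known to be induced by inflammatory cytokines. In mm10 it spans chromosome 9 from 21015985 to 21028817 on the plus strand. Its normalized count was 85.2 and 83.3 in the WT libraries and 97.6 and 110.0 in the KO-labelled libraries. Both KO-labelled libraries were thus above both WT libraries. WT averaged 84.2 ± 1.32 (SD, n = 2) and the KO-labelled libraries 104 ± 8.77 (SD, n = 2). The log2 change was 0.33 (± 0.11 SE, 95% interval 0.09 to 0.57) and did not pass the threshold (adjusted p = 0.0745 from the quasi-likelihood test of edgeR). When libraries were scaled by their totals alone, the adjusted p was 0.0479. Icam1 RNA was not lower in the KO-labelled libraries, so the gene count does not by itself bear out the label. No protein was measured in these libraries. In a separate assay the paper stained lung ILC2s of such mice for ICAM-1 by flow cytometry after rmIL-33. It describes the mice as constitutively lacking ICAM-1. The count is summed over the gene and does not show which exons the reads covered, and the part of Icam1 that this allele disrupts is not given in the sources used here. An antisense gene, Gm47079, shares 511 exon bases with Icam1 but held at most 9 counts in any library.

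The promoter of Icam1 is shown because Icam1 RNA was made in every library, whatever its label. These are the 250 bases before the RefSeq start on the plus strand (chr9:21015690-21015939, GRCm38.p6, which is mm10), and the RefSeq start lies 45 bases before the start in the deposited tables. Capitals mark the letters GGAAATTCC, a form of the site bound by NF-kB, the family of factors that IL-33 signalling switches on.

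Icam1: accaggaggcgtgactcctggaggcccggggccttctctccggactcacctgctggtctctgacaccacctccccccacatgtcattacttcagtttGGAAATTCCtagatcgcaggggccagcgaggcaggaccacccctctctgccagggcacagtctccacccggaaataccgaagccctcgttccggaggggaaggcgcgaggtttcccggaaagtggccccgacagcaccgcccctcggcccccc

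The match lies from 153 to 145 bases before the RefSeq start. On either strand, the same letters were found in 0.286% of the 32851 promoter windows of this length in the RefSeq table. Of the 6 genes described here that had a window, Icam1 was the only one to hold them. A match of letters is a description of this window and does not show binding.

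Icam2 encodes ICAM-2 (CD102), a shorter ligand of LFA-1 that is known from resting endothelium and leukocytes. It lies on chromosome 11 from 106377656 to 106388075. Its normalized count was 36.5 and 44.1 in WT and 48.1 and 47.2 in the KO-labelled libraries. The groups did not overlap, but the WT libraries were further from each other than the nearer of them was from the other group. The log2 change was 0.27 (± 0.14 SE, 95% interval -0.05 to 0.58) and did not pass the threshold (adjusted p = 0.235). Per kilobase of exon, which allows levels of different genes to be compared, Icam1 was at 0.824 to 1.02 times the level of Icam2 in the 4 libraries. The endothelial markers moved in the same direction as Icam2, and their part in its value was not tested.

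The other ICAM genes and the JAM genes in the list had low counts. Icam4 and Icam5, which lie next to Icam1 on chromosome 9, had 2 to 40 and 0 to 35 counts per library and were too low to test. F11r, which encodes the LFA-1 ligand JAM-A, had normalized counts of 4.16 and 6.52 in WT and 11.1 and 10.4 in the KO-labelled libraries (log2 change 1.03, adjusted p = 0.0534). Jam2, a junctional molecule known from endothelium, rose from 1.19 and 1.71 to 11.1 and 6.34 (log2 change 2.62 ± 0.46 SE, adjusted p = 0.00916). At its WT level Jam2 would not have passed the filter on low values, so it could be tested only because it was higher in the KO-labelled libraries. Jam3 had 4 to 19 counts per library and was not tested.

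Itgal encodes CD11a, the alpha chain of LFA-1, on chromosome 7 from 127296260 to 127335138. Its normalized count was 296 and 316 in WT and 312 and 316 in the KO-labelled libraries. The groups overlapped, and the 4 libraries differed little. The log2 change was 0.06 (± 0.08 SE, adjusted p = 0.658), with a 95% interval from -0.13 to 0.25. Itgb2, which encodes the shared beta chain CD18 on chromosome 10 from 77530252 to 77565708, had 321 and 298 in WT and 319 and 351 in the KO-labelled libraries. These groups also overlapped, with a log2 change of 0.14 (± 0.09 SE, 95% interval -0.07 to 0.35, adjusted p = 0.339). The intervals of both LFA-1 genes lie well inside a 2-fold change in either direction. Per kilobase of exon, the level of Itgal was 0.418 to 0.492 times that of Itgb2 in the 4 libraries.

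Itgam encodes CD11b, the alpha chain of Mac-1, on chromosome 7 from 128062640 to 128118491. Counts of Itgam were 238 and 270 in WT, against 729 and 709 in the KO-labelled libraries. Its normalized count rose from 7.89 and 8.58 to 25.3 and 22.6, so that the groups lay far apart while the libraries within each were close. The log2 change was 1.57 (± 0.21 SE, 95% interval 1.09 to 2.05, adjusted p = 0.0029), a 2.97-fold rise that kept its direction and its side of the threshold in all 13 alternatives tried. A gene on the same strand, Gm49368, shares 3450 exon bases with Itgam but was assigned at most 5 counts in any library.

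Itgax encodes CD11c, the alpha chain of CR4, and starts 11055 bases after the end of Itgam, on chromosome 7 from 128129547 to 128150657. It had 91 and 186 counts in WT and 311 and 361 in the KO-labelled libraries. Its normalized count was 3.04 and 5.92 in WT, the widest spread within a group among the 10 genes relative to the mean, and 10.8 and 11.5 in the KO-labelled libraries. The groups did not overlap. The log2 change was 1.35 (± 0.34 SE, 95% interval 0.58 to 2.11, adjusted p = 0.0333), a rise of 2.54-fold. This call rested on the lower WT library: without WT library 1 the log2 change was 0.95 with an adjusted p of 0.129, and without KO-labelled library 2 the adjusted p was 0.057. It was also lost without a filter on low counts (adjusted p = 0.101) and with the earlier quasi-likelihood fit (adjusted p = 0.059).

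Itgam and Itgax rose beside the macrophage, monocyte and dendritic cell markers, none of which was at 0 in any library. The list rose less in KO-labelled library 1, at 454, than in library 2, at 713. Itgam stood at 25.3 and 22.6 and Itgax at 10.8 and 11.5 in the same libraries. Most of that sum was Lyz2, a lysozyme gene of macrophages, which rose from 169 and 172 to 344 and 577 (log2 change 1.46, adjusted p = 0.00324). Csf1r, the receptor for the macrophage growth factor, rose from 27.1 and 22.0 to 47.6 and 58.2 (log2 change 1.14, adjusted p = 0.00418), and Cd68, a lysosomal protein, from 12.2 and 10.8 to 20.3 and 26.4 (log2 change 1.06, adjusted p = 0.0169). All 3 were lower in KO-labelled library 1 than in library 2. Of the 6 tested markers only Mrc1, the mannose receptor, was higher in library 1, at 25.4 against 20.5. Of 6 neutrophil markers tested, 2 were higher and 0 lower. S100a8 rose from 18.5 and 16.6 to 50.8 and 31.0 (log2 change 1.24, adjusted p = 0.0118). S100a9 rose from 25.0 and 22.6 to 65.7 and 50.8 (log2 change 1.32, adjusted p = 0.0019). Mpo (log2 change -1.62) and Elane (-1.55) went the other way without passing the test. Camp, not tested, had 0 counts in both WT libraries and 47 and 33 in the KO-labelled libraries. The part of these myeloid cells in the values of Itgam and Itgax was not tested. In these bulk libraries a change in the number of cells of a type and a change in RNA per cell cannot be told apart.

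**Figure D1:**
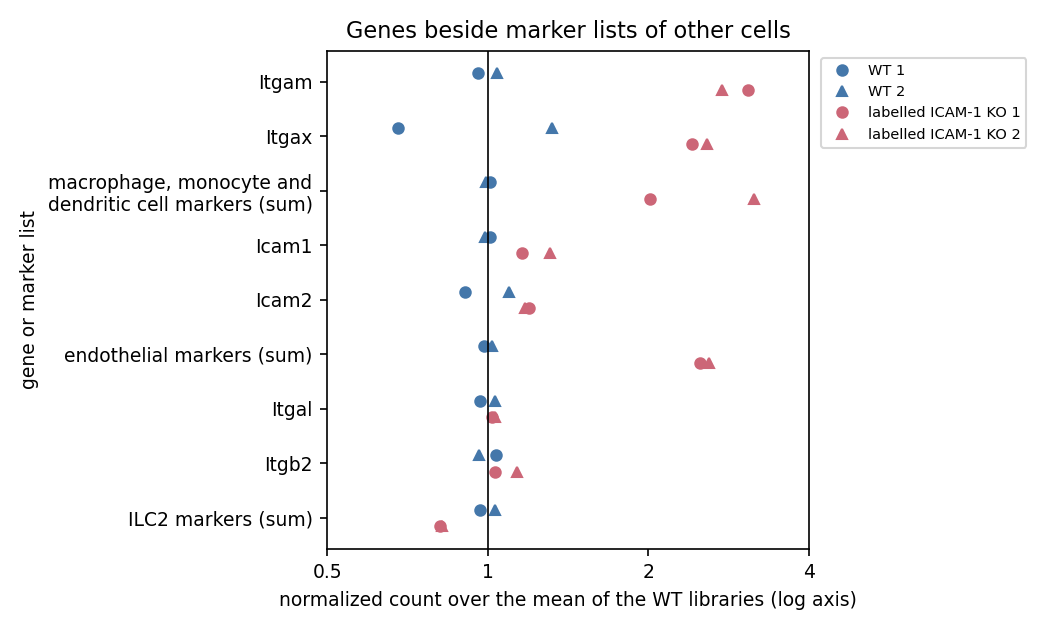
Normalized count of 6 of the genes, and summed normalized count of 3 marker lists, in each library divided by the mean of the WT libraries (log axis; points are single libraries). Itgam and Itgax lie to the right with the macrophage list in both KO-labelled libraries, at 2.97-fold and 2.54-fold in the fit, while Itgal and Itgb2 stay near 1.

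The upstream windows of Itgam and Itgax are shown because these neighbours rose together. They are the 250 bases before each RefSeq start on the plus strand (chr7:128062390-128062639 and chr7:128129300-128129549, GRCm38.p6). Capitals mark the letters GAGGAA or their reverse complement TTCCTC, the box bound by PU.1, an ETS family factor of myeloid cells.

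Itgam: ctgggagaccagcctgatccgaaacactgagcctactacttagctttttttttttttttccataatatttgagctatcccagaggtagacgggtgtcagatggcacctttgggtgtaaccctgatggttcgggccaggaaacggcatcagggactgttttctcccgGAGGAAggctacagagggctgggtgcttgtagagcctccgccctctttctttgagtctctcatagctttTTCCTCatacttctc
Itgax: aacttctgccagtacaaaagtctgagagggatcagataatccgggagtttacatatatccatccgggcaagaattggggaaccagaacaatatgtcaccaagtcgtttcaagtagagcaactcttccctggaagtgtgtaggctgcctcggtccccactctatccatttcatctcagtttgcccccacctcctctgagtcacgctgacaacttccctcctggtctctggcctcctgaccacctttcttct

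The box was found on the plus strand of the Itgam window from 84 to 79 bases before the start and on the minus strand from 15 to 10 bases before it. It was not found in this form in the Itgax window. Of the 6 genes described here that had a window, Itgam and Tln1 held it, and Tln1 did not pass the test. Of all 32851 windows of this length, 23.3% held the box on either strand, so its presence sets a window little apart. No match says only that these letters are not in this stretch.

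The remaining alpha chain Itgad and the beta chain paralog Itgb2l were at 0 counts in both WT libraries, where a count of 0 allows up to 3. Itgad had 20 and 15 counts and Itgb2l 34 and 17 counts in the KO-labelled libraries. Both were too low to test. Among the alpha chains, Itgal was by far the most abundant in every library. Per kilobase of exon its level was 28.7 and 28.1 times that of Itgam in WT and 9.4 and 10.7 times in the KO-labelled libraries. Against Itgax it was 71.2 and 39.0 times in WT and 21.1 and 20.0 times in the KO-labelled libraries. Thus LFA-1 chains dominated in all 4 libraries, with a smaller margin in those labelled ICAM-1 KO.

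Tln1 encodes talin-1, which links the integrin tail to actin, on chromosome 4 from 43531519 to 43562691. Its normalized count was 323 and 308 in WT and 360 and 321 in the KO-labelled libraries. These groups overlapped, with a log2 change of 0.14 (± 0.09 SE, 95% interval -0.06 to 0.34, adjusted p = 0.33). Creb3 on the other strand shares 360 exon bases with Tln1 and had 1159 to 1323 counts, so the value of Tln1 is uncertain by reads that fit both.

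Fermt3 encodes kindlin-3, the kindlin of blood cells, on chromosome 19 from 6998958 to 7019469. It was the only one of the 10 genes with both KO-labelled libraries, at 333 and 358, below both WT libraries, at 401 and 390. The log2 change was -0.17 (± 0.09 SE, 95% interval -0.36 to 0.02) and did not pass the threshold (adjusted p = 0.22). Trpt1 on the other strand shares 89 exon bases with it and had 39 to 68 counts. The related Fermt2, which encodes kindlin-2 of non-blood cells, rose from 2.31 and 1.65 to 8.09 and 9.69 (log2 change 2.22 ± 0.37 SE, adjusted p = 0.00705). Like Jam2, it would have been too low to test at its WT level. The endothelial markers moved with it, and their part was not tested. Tln2 had 19 to 89 counts with overlapping groups and was not tested. No gene of the symbol Fermt1 was among the 22558 genes with deposited counts.

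Rap1a and Rap1b encode closely related forms of Rap1, the switch that carries signals from cytokine and chemokine receptors to LFA-1. Rap1b, on chromosome 10 from 117813871 to 117846035, had the highest level of the 10 genes per kilobase and normalized counts of 624 and 697 in WT and 671 and 723 in the KO-labelled libraries. The groups overlapped (log2 change 0.10 ± 0.09 SE, 95% interval -0.10 to 0.31, adjusted p = 0.483). Rap1a, on chromosome 3 from 105727267 to 105801336, had 210 and 251 in WT and 207 and 220 in the KO-labelled libraries. These also overlapped (log2 change -0.08 ± 0.11 SE, 95% interval -0.32 to 0.16, adjusted p = 0.649). Per kilobase of exon, Rap1b was 2.52 to 2.97 times as abundant as Rap1a. Reads that fit both genes are split in these estimated counts, so the ratio is uncertain.

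Ordered by the mean level per kilobase of exon, the genes ran from Rap1b (235) over Itgb2 (105), Rap1a (85.0), Fermt3 (64.1), Itgal (47.2), Tln1 (33.5), Icam2 (23.1) and Icam1 (21.6) to Itgam (3.21) and Itgax (1.63). Neighbours in this order did not overlap across the 4 libraries, except Icam2 with Icam1 and Itgam with Itgax. Within each library Itgam was above Itgax, at 1.39 to 2.48 times its level. The first 6 genes were at or above percentile 85.7 of the 11301 tested genes whose length could be matched, Icam2 and Icam1 at 79.9 and 78.5, Itgam at 30.8 and Itgax at 16.1. With the length of the longest transcript in place of all exons, Fermt3 moved to place 2 and Icam1 came before Icam2, while Rap1b stayed first and Itgam and Itgax last.

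**Figure D2:**
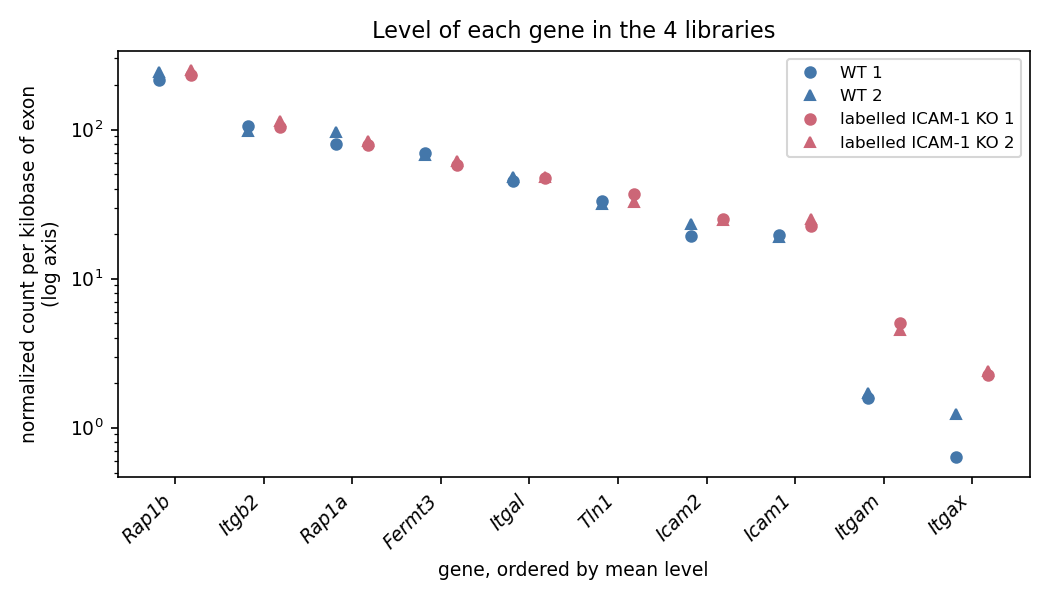
Level of the 10 genes per kilobase of exon (normalized count per kilobase, log axis) in the 4 libraries, each point being 1 library. The LFA-1 chains and the activators lie between 31.4 and 251 in every library, whereas Itgam and Itgax lie under 5.1 and are higher in both KO-labelled libraries.

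A list of 52 genes of the pathway, which includes the 10, was described in the same way. Of its 44 tested genes, 15 were higher and 0 were lower in the KO-labelled libraries, against 8.8% and 4.97% of all genes tested, and the median log2 change was 0.28. At an unadjusted p under 0.05, edgeR gave 21 higher and 0 lower genes of the list, DESeq2 22 and 0, and limma 20 and 1. Of all 11711 genes tested, 3542 had such a p from edgeR in either direction. After adjustment DESeq2 and limma called 0 lower. Jam2 and Fermt2 are among the 15 and could only have been called higher, as they passed the filter through the KO-labelled libraries. Without them 13 of 42 tested genes were higher, 6 of these by at least 2-fold, and the median log2 change was 0.25. The higher genes numbered 8 where a 2-fold change was also demanded, 5 without a filter on low counts, and 8 without WT library 1.

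Of the 7 tested genes in the group of exchange factors, most of which load Rap1 with GTP, 3 were higher, against 8.8% of all genes tested. Rapgef6, with the highest normalized count of the 7, rose from 127 and 137 to 166 and 164 (log2 change 0.35 ± 0.09 SE, adjusted p = 0.0382). Rasgrp2, whose product CalDAG-GEFI activates Rap1 on calcium signals, rose from 14.3 and 14.2 to 27.5 and 27.8 (log2 change 0.98 ± 0.18 SE, adjusted p = 0.0098). Rasgrp3, a factor well known from B cells, rose from 4.49 and 9.69 to 17.3 and 20.3 (log2 change 1.43, adjusted p = 0.0221). The B cell markers were higher in the same libraries, and their part in Rasgrp3 was not tested. Rasgrp1, with the next normalized count, was at 88.6 and 79.8 in WT and 105 and 98.0 in the KO-labelled libraries (adjusted p = 0.096).

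The GTPase activating proteins, which switch Rap1 off, had 4 of 7 tested genes higher, against 8.8% of all genes tested. Rasa3 rose from 46.4 and 46.3 to 98.1 and 95.3, a 2.12-fold change with libraries of each group close together (log2 change 1.09 ± 0.11 SE, 95% interval 0.85 to 1.33, adjusted p = 0.000703). Sipa1, which encodes the lymphocyte Rap1 inhibitor SPA-1, rose from 101 and 88.5 to 127 and 127 (log2 change 0.45 ± 0.10 SE, adjusted p = 0.024). Rap1gap2 rose from 4.69 and 3.74 to 12.1 and 14.1 (log2 change 1.67, adjusted p = 0.00827) and Sipa1l2 from 3.80 and 1.84 to 8.05 and 8.79 (log2 change 1.63, adjusted p = 0.0261). Genes that load Rap1 and genes that unload it were therefore both among the higher genes, beside Rap1a and Rap1b that did not pass the test. Many markers of other lung cells were also higher in the KO-labelled libraries, and their part in these values was not tested.

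Of 9 effectors and adaptors between Rap1 and the integrin, 3 were higher, against 8.8% of all genes tested. Stk4, the kinase MST1 that works with RAPL, rose from 151 and 154 to 199 and 184 (log2 change 0.35, adjusted p = 0.0342). Fyb, which encodes the adaptor ADAP, rose from 92.7 and 102 to 144 and 177 (log2 change 0.75 ± 0.12 SE, adjusted p = 0.00676), and Skap2, a partner of ADAP, rose from 23.7 and 24.5 to 39.2 and 46.3 (log2 change 0.86 ± 0.16 SE, adjusted p = 0.0102). Many markers of other lung cells were higher in the same libraries, and their part in Stk4, Fyb and Skap2 was not tested. The 2 genes with the highest normalized counts of this group of effectors and adaptors did not pass the test. Skap1 was at 281 and 273 in WT and 234 and 282 in the KO-labelled libraries (adjusted p = 0.679), and Rassf5, which encodes RAPL, was at 232 in both WT libraries and at 224 and 218 (adjusted p = 0.774).

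None of the 5 genes listed as restraints on integrin activation passed the test. Flna, which encodes filamin A and competes with talin, was at 665 and 646 in WT and 819 and 685 in the KO-labelled libraries (log2 change 0.22, adjusted p = 0.153), and Cytip was at 504 and 584 against 546 and 600 (adjusted p = 0.532). Of the ERM proteins, which tie ICAM-1 and ICAM-2 to the cell cortex, Ezr (ezrin) rose from 303 and 267 to 357 and 357 (log2 change 0.35 ± 0.09 SE, adjusted p = 0.0363). Msn (moesin) was at 814 and 769 against 911 and 856 (log2 change 0.18, adjusted p = 0.167). The part of other lung cells in the value of Ezr was not tested.

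**Figure D3:**
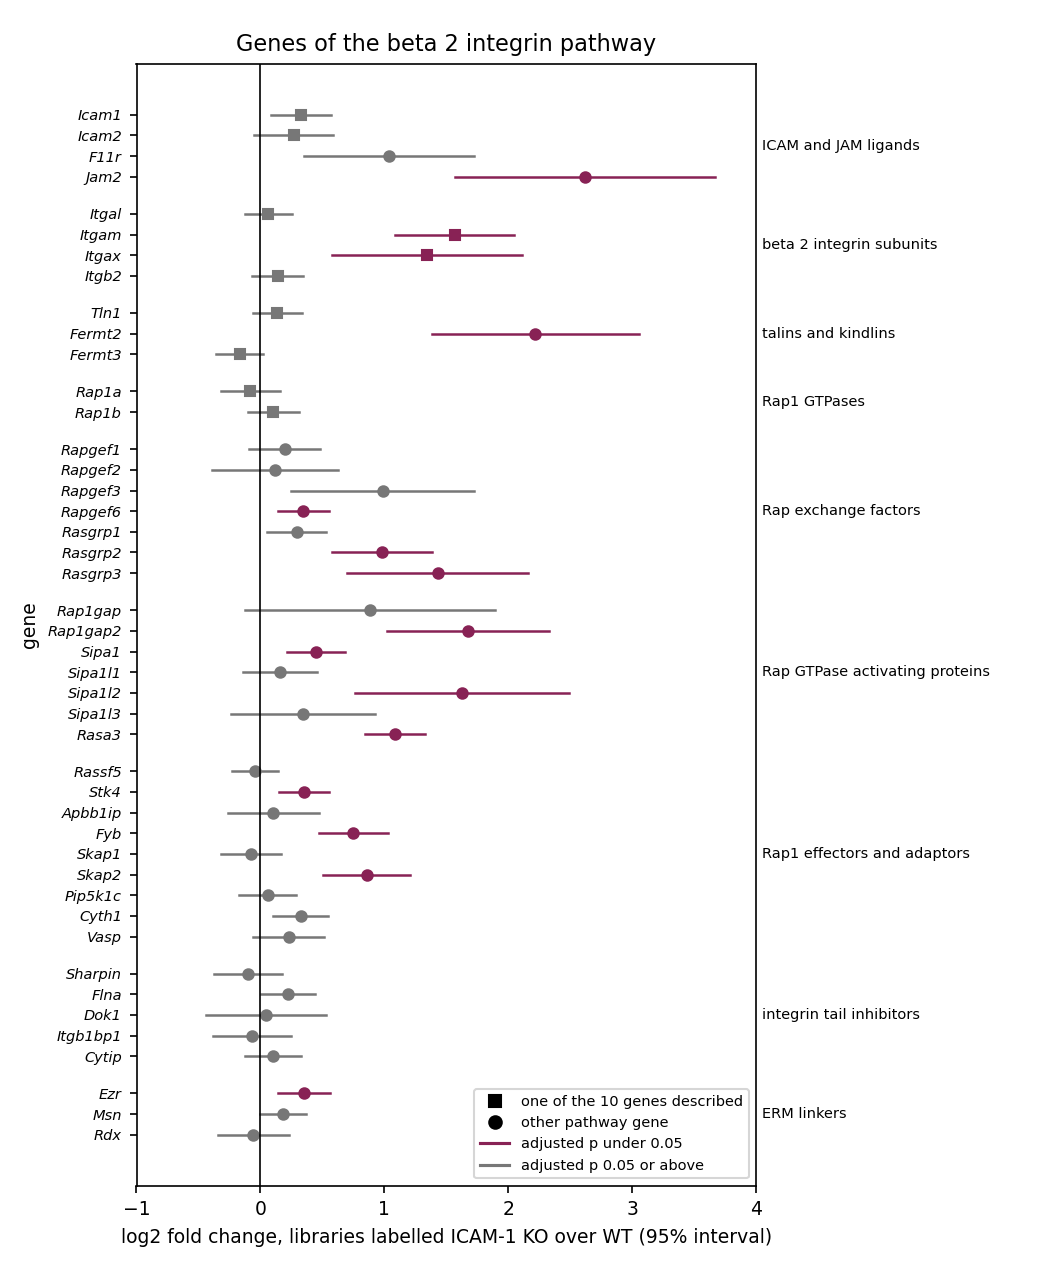
Log2 change of the 44 tested pathway genes between the KO-labelled libraries and WT with 95% intervals (lines), grouped by role. Squares are the 10 genes described and circles the others, and dark symbols mark an adjusted p under 0.05, which 15 genes reached, all to the right of 0. Among the squares only Itgam and Itgax are dark.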

How the data were processed

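RNA of sorted lung ILC2s was sequenced in 4 libraries, 2 labelled WT and 2 labelled ICAM-1 KO. The authors made cDNA with a SMARTer low-input kit from 10 ng of RNA, used STAR for alignment (genome mm10, annotation GENCODE M20) and deposited expected counts per gene from the E/M method of Partek, in which reads that fit several genes are split. Whether strand was used is not given in the sources used here. The deposited normalized signal comes from upper quartile normalization, in which a factor per library multiplies the count after 1 is added. The differential test in Partek (GSA) was not run.

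The rounded counts were fitted in R 4.3.3 by the quasi-likelihood method of edgeR 4.0.16 (the newer form, legacy = FALSE). Upper quartile factors scaled the libraries, and genotype was the only term. Genes entered if their normalized counts averaged 1 or more and summed to 10 or more, which left 11711. All p-values were adjusted over these genes by Benjamini-Hochberg. Standard errors come from the log2 fold change and its F statistic, and means and SDs are over normalized counts. Exon lengths and overlaps come from GENCODE M21, in which 21880 of the 22558 genes had the deposited coordinates after the end was moved by 1 base, and promoter windows from RefSeq. Nothing states that the pools are from separate experiments, so p-values measure the spread between these libraries, and a count of 0 allows up to 3 counts by counting error alone.

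The 10 genes, the pathway list and the marker lists were chosen with earlier results of these data known. By rule, the text names the 10 genes, pathway genes with an adjusted p under 0.05, the 2 of each pathway group and the 3 markers of each list with the highest mean normalized counts. Genes named with low counts, F11r, Mrc1, Elane, the ILC2 genes other than the 3 leading ones and the neighbours of Icam1 were chosen after their values were seen. Alternatives were TMM factors, library totals, DESeq2 1.42.0, limma 3.58.1 on the log2 of the normalized count plus 1, the older form of the test, 3 other filters, a replicate block, leaving out each library, and a 2-fold threshold.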

Additional observations from a re-analysis of the deposited data

How the results depend on the processing

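Over the 13 alternatives, each of the 10 genes was fitted again, which gave 130 fits. The call and direction were kept in 124 of them, 5 lay on the other side of the threshold and 1 turned direction. Rap1a, which was not called, ranged from -0.20 to 0.051 without each library in turn, turning positive without WT library 2. Icam1 kept a positive log2 change from 0.23 to 0.42 without each library in turn and was called when libraries were scaled by their totals alone (0.37, adjusted p = 0.0479). That scaling moved the median of all genes from 0.01 to 0.05. Over the other alternatives without a left-out library the adjusted p of Icam1 reached 0.207.

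The count of the 10 genes that were higher was 1 with the earlier quasi-likelihood fit and without a filter on low counts, and 1 to 2 without each library in turn. The gene lost was Itgax. Among the pathway genes, 5 were higher without a filter on low counts, 8 with a 2-fold threshold and 8 to 12 without each library in turn. Among all genes, 334 were higher and 201 lower without a filter, 578 and 63 with a 2-fold threshold, and 479 to 948 higher and 158 to 388 lower without each library. DESeq2 called 930 lower. With 1 library left out, the single library of its group is assumed to vary like the other group. The replicate numbers are shared by both genotypes but come from different mice, and same-numbered libraries did not deviate together (correlation -0.03 across genes). With the replicate number as a block, 1077 genes were higher and 638 lower and no call of the 10 genes changed. Levels per kilobase rose for every gene with the shorter length of its longest transcript, for Icam1 from 19.3 to 33.2 in WT. At 91 to 361 counts per library Itgax is the least precise of the 10 genes.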

Other observations

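The genes around Icam1 were looked at after the data had been seen, since the strain name B6.129S4 says that the allele was made on another background. Within 250 kb on each side of Icam1 lie 25 genes of the deposited count table, of which 15 were tested. None was higher and 3 were lower in the KO-labelled libraries at an adjusted p under 0.05 from edgeR. Among all genes tested, 8.8% were higher and 4.97% lower by this rule, 13.8% in all. The median log2 change of the 15 genes was -0.14, against 0.01 for all genes tested. Fdx1l, a ferredoxin gene of mitochondria, fell from normalized counts of 28.1 and 27.8 to 17.5 and 17.0 (log2 change -0.67 ± 0.17 SE, adjusted p = 0.0344). Cdc37, which encodes a cochaperone of kinases, fell from 287 and 264 to 198 and 215 (log2 change -0.39, adjusted p = 0.0276), and Eif3g, a subunit of a translation initiation factor, fell from 175 and 171 to 125 and 134 (log2 change -0.39, adjusted p = 0.0276). Tyk2, the cytokine receptor kinase gene in the same stretch, was at 78.1 and 85.7 in WT and 101 and 88.5 in the KO-labelled libraries (adjusted p = 0.196). The extent of foreign sequence around Icam1 is not given in the sources used here, and its part in these values was not tested.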
